A study of Mus musculus with 12 samples.

Results

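Bulk RNA sequencing of mouse tumours compared 3 libraries of the group labelled XCHT-H with 3 of the group labelled Ctrl, which are 6 of the 12 libraries of the study. XCHT-H tumours came from mice that carried a subcutaneous colorectal tumour, were kept under chronic stress and were given Xiao-chai-hu decoction, a Chinese medicine made from several herbs, at its high dose. Ctrl tumours came from mice with the same kind of tumour and neither stress nor decoction. The other 6 libraries, 3 labelled Stress (tumour and chronic stress) and 3 labelled XCHT-L (tumour, chronic stress and the low dose), entered the same statistical model. The labels give no mouse strain, age, tumour line, dose or duration, and are silent on whether the 3 libraries of each group are 3 animals; the p-values then reflect the spread of these libraries alone, which may be technical. Because stress and decoction were both present in XCHT-H and both absent in Ctrl, their contributions cannot be told apart in this comparison. It asks how far tumours of stressed and treated mice differed from tumours of mice with neither.

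Chronic stress acts on tissues through glucocorticoids, which bind the receptor encoded by Nr3c1, and through catecholamines, which bind beta-adrenergic receptors and raise cyclic AMP. The activated glucocorticoid receptor turns on genes such as Fkbp5, Tsc22d3, Sgk1 and Per2, the last of which is also a part of the circadian clock. A tumour grown under the skin holds malignant cells together with blood vessels, fibroblasts, immune cells and, at times, fragments of neighbouring muscle, and bulk RNA sums over all of them. In such RNA, fewer cells of a type and less RNA per cell cannot be told apart.

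The 3 XCHT-H libraries held 17501285, 17174591 and 17092936 estimated counts over genes, and the 3 Ctrl libraries held 16961047, 17326502 and 16734741. Distance between libraries was measured as the root mean square difference in log2 CPM (counts scaled to library size) over the 13453 genes tested. It was 0.428, 0.587 and 0.638 between pairs of XCHT-H libraries, 0.353 to 0.563 between XCHT-H and Ctrl libraries, and 0.369 to 0.439 between pairs of Ctrl libraries. XCHT-H libraries were thus as far from each other as from Ctrl libraries. The SD of log2 CPM within a group had a median over genes of 0.174 in XCHT-H and 0.102 in Ctrl. It was 0.16 in Stress and 0.27 in XCHT-L, whose spread also entered the p-values and intervals of the model. XCHT-H replicate 1 stood apart in haemoglobin and mast cell transcripts, and XCHT-H replicate 2 and Ctrl replicate 1 in skeletal muscle transcripts, so the lists and genes that moved most with them are also given without them.

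**Figure D1:**
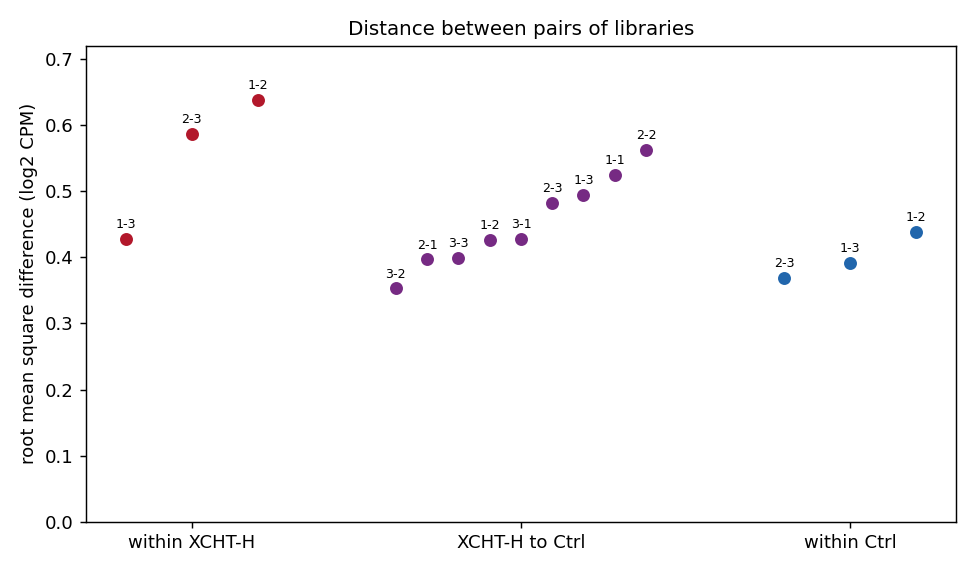
Each point is a pair of libraries, named by their replicate numbers (the XCHT-H number first where the groups differ), and the vertical axis is their root mean square difference in log2 CPM over the 13453 genes tested. The 9 pairs that join XCHT-H to Ctrl span 0.353 to 0.563, which takes in all 3 pairs within Ctrl, and the 2 widest of the pairs shown are within XCHT-H, at 0.587 and 0.638.

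No gene passed in XCHT-H against Ctrl. edgeR's quasi-likelihood test called 0 of 13453 genes (0.0%) at a Benjamini-Hochberg adjusted p under 0.05, and the smallest adjusted p was 0.99999. An unadjusted p under 0.05 was reached by 140 genes (1.04%), of which 78 were higher (0.58%) and 62 lower (0.461%), where 5% of the genes tested would be 673. DESeq2 called 1 gene and had 160 at an unadjusted p under 0.05, and limma-voom called 0 and had 562. The count at an unadjusted p was 412 with only the 6 libraries compared in the fit, and it was 68, 232 and 329 without XCHT-H replicates 1, 2 and 3 and 77 without Ctrl replicate 3, with 0 genes called in each of these omissions. For the neighbouring comparisons edgeR also called 0 genes (0.0%): Stress against Ctrl, which shares the Ctrl libraries, had 383 genes (2.85%) at an unadjusted p under 0.05, and XCHT-H against Stress had 191 (1.42%). The 3 XCHT-H and 3 Ctrl libraries did not overlap for 1170 genes (8.7%), with XCHT-H higher for 507 (3.77%) and lower for 663 (4.93%).

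The size of difference that the data leave room for was bounded for most genes. The median SE of the log2 fold change was 0.164, and for 11199 genes (83.2%) the 95% interval of the log2 fold change lay within 1 of 0, so that a difference of 2-fold or more was outside it. The log2 fold change was at least 1 in size for 159 genes, and the groups did not overlap for 44 of them. The median log2 fold change of all genes was 0.002, and 50.5% of genes had a positive one.

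None of the genes named next passed the test. They are the 8 per direction with the smallest unadjusted p among genes with an official symbol, a mean of at least 1 FPKM (fragments scaled to gene length and library size) in the higher group and no overlap between groups, so their lack of overlap was a condition of the choice.

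Among genes lower in XCHT-H, Mgat3 encodes the enzyme that adds the bisecting N-acetylglucosamine to N-glycans (chr15:80173651-80215519, GRCm38.p6). It stood at 126.1, 120.1 and 120.1 CPM in XCHT-H, against 153.8, 155.0 and 187.7 CPM in Ctrl, with a log2 fold change of -0.44 (SE 0.11, unadjusted p = 0.001333 by edgeR). The XCHT-H libraries lay close together and all below the lowest Ctrl library. The same held of the libraries not in the comparison: Stress libraries spanned 102.0 to 126.1 CPM and XCHT-L libraries 108.9 to 117.9 CPM, so all 9 libraries of stressed mice were below every Ctrl library. Comparisons of the other groups with Ctrl share these 3 Ctrl libraries. Of the other genes chosen by the smallest p, Rasgef1a, Card10 and Leng8 were likewise lower in all 9 libraries than in any Ctrl library. Ccnd3, Pf4, Sec61a1, Acad10 and, narrowly, Tubb2a were higher in all 9. How many of all genes separate in this way was not counted, and not every gene named below does.

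Rasgef1a, which encodes a guanine nucleotide exchange factor for small GTPases, had the same layout (chr6:118011505-118091546). It was at 2.444, 2.352 and 3.079 CPM in XCHT-H, against 5.211, 4.881 and 6.306 CPM in Ctrl, a log2 fold change of -1.06 (SE 0.31). Stress libraries were at 1.375 to 2.623 CPM and XCHT-L libraries at 1.204 to 2.357 CPM, all below Ctrl. Card10, a scaffold protein upstream of NF-kappa-B, was at 10.67, 14.64 and 13.71 CPM in XCHT-H and at 20.79, 18.94 and 24.74 CPM in Ctrl (log2 fold change -0.72, SE 0.24, chr15:78775123-78803072). Here too the 6 Stress and XCHT-L libraries, at 7.39 to 16.56 CPM, were below every Ctrl library.

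Rgs1, which damps signalling by G-protein-coupled receptors in lymphocytes, was at 5.61, 6.585 and 5.112 CPM in XCHT-H, against 8.08, 13.89 and 16.15 CPM in Ctrl. Its log2 fold change was -1.14 (SE 0.38), and the Ctrl libraries were spread more widely than the XCHT-H libraries. Stress libraries, at 5.832 to 9.209 CPM, and XCHT-L libraries, at 6.036 to 16.86 CPM, overlapped Ctrl. Spata33 averaged 1.645 ± 0.458 CPM in XCHT-H and 2.848 ± 0.214 CPM in Ctrl (SD, n = 3 each). Its Stress libraries, at 2.448 to 2.974 CPM, overlapped the Ctrl libraries, at 2.635 to 3.063 CPM. Leng8 averaged 231.6 ± 9.81 CPM in XCHT-H and 287.8 ± 19.7 CPM in Ctrl (SD, n = 3 each). Arntl is described with the clock genes, and Tmem254c with its copies.

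Among genes higher in XCHT-H, Ccnd3 encodes cyclin D3, which drives entry into the cell cycle (chr17:47505051-47599689). It was at 88.99, 87.54 and 71.92 CPM in XCHT-H, against 63.88, 64.5 and 65.82 CPM in Ctrl, with a log2 fold change of 0.36 (SE 0.10, unadjusted p = 0.003837). The Ctrl libraries lay within 2 CPM of each other, and Stress (70.4 to 80.25 CPM) and XCHT-L (81.42 to 91.12 CPM) libraries were also all above them. Pf4, a chemokine of platelets and macrophages, was at 16.44, 14.93 and 10.86 CPM in XCHT-H, against 9.661, 7.671 and 9.549 CPM in Ctrl. Its log2 fold change was 0.65 (SE 0.21), and again every Stress and XCHT-L library, at 11.97 to 18.3 CPM, was above Ctrl.

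Serpina3n, a secreted serine protease inhibitor of the acute phase response, was at 8.388, 8.819 and 4.822 CPM in XCHT-H, against 4.391, 2.964 and 4.564 CPM in Ctrl. XCHT-H replicate 3 was close to the highest Ctrl library, and the log2 fold change was 0.89 (SE 0.28). Thbd, the endothelial anticoagulant receptor thrombomodulin, averaged 15.96 ± 2.22 CPM in XCHT-H and 11.81 ± 1.79 CPM in Ctrl (SD, n = 3 each). Sec61a1, the pore subunit of the translocon of the endoplasmic reticulum, averaged 206.4 ± 14.6 CPM in XCHT-H and 171.9 ± 7.35 CPM in Ctrl. Tubb2a, a beta-tubulin, averaged 27.04 ± 4.26 CPM in XCHT-H and 20.47 ± 1.15 CPM in Ctrl, and Acad10, of the acyl-CoA dehydrogenase family, averaged 5.49 ± 1.22 CPM in XCHT-H and 3.713 ± 0.269 CPM in Ctrl (SD, n = 3 each).

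**Figure D2:**
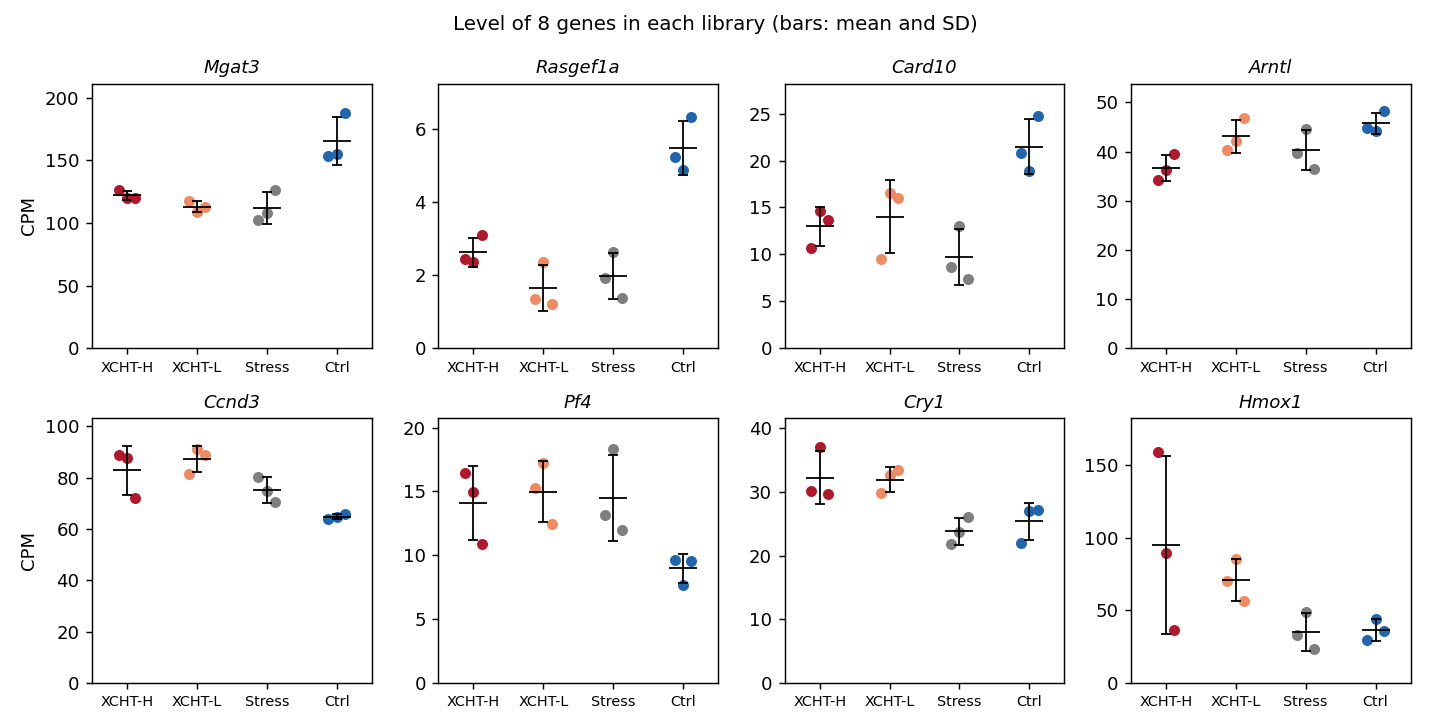
Each point is the level of a gene in a library, in CPM on an axis from 0, by group, and the bar with whiskers is the mean with the SD of 3 libraries. Mgat3, Rasgef1a and Card10 are lower, and Ccnd3 and Pf4 higher, in all 9 libraries of stressed mice than in any Ctrl library, while Hmox1 reaches 158.8 CPM in 1 XCHT-H library and 36.31 CPM in another.

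Tmem254c had the widest separation of the named genes and is 1 of 3 nearly identical copies of a transmembrane protein gene on chromosome 14. Its level was 0.2222, 0.1764 and 0.2905 CPM in XCHT-H, against 3.513, 4.475 and 5.825 CPM in Ctrl, a log2 fold change of -4.28 (SE 1.09, 95% interval -6.68 to -1.88). It is the single gene called by DESeq2 (adjusted p 0.0201), and also by edgeR fitted to the 6 libraries compared alone (adjusted p 0.00945), while edgeR's fit of all 12 libraries did not call it. Within Stress, 1 library held 8.631 CPM and the other two 0.5828 and 0.4583 CPM. The level therefore also differed more than 10-fold between libraries of a single group.

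The copies share most of their sequence, which the authors' counting could split in different ways. Of the 31-base words of the transcripts, all of those of Tmem254c and of Tmem254b, and 69.8% of those of Tmem254a, also occur in another copy. The 120 bases before the annotated start of each are shown because they make the likeness visible, with capitals for the stretch that lies in the 234-base run shared by all 3 (RefSeq, GRCm38.p6, minus strand).
Tmem254a, chr14:25927673-25927792: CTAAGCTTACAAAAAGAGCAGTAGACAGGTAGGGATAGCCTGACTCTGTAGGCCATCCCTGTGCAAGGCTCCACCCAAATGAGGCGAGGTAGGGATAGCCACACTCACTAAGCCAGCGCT
Tmem254b, chr14:26207026-26207145: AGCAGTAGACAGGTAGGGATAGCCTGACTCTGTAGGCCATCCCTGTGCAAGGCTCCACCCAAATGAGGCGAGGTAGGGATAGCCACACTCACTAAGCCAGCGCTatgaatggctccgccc
Tmem254c, chr14:26067426-26067545: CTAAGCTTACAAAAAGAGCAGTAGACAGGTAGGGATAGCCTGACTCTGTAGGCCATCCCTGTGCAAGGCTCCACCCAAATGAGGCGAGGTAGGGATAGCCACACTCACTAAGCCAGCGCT
The windows of Tmem254a and Tmem254c were identical over all 250 bases read, and that of Tmem254b is shifted along the same run.

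Between XCHT-H and Ctrl, Tmem254b was higher where Tmem254c was lower. This did not hold in every library of the other groups: XCHT-L replicates 1 and 2 had Tmem254c at 5.001 and 2.185 CPM and Tmem254b at 18.49 and 19.37 CPM. Tmem254b was at 20.55, 20.93 and 19.0 CPM in XCHT-H, against 14.58, 17.08 and 13.33 CPM in Ctrl, with no overlap. Summed over the 3 copies the level was 21.72, 21.99 and 20.04 CPM in XCHT-H, against 20.49, 22.78 and 20.18 CPM in Ctrl. The sums overlapped and averaged 21.25 ± 1.05 CPM in XCHT-H and 21.15 ± 1.42 CPM in Ctrl (SD, n = 3 each, 2-sided exact permutation p = 1.0, where 0.1 is the smallest this design allows). With the copies summed before the edgeR fit, the log2 fold change was 0.01 (SE 0.15, 95% interval -0.32 to 0.33). Summing the copies was chosen after their values were seen.

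**Figure D3:**
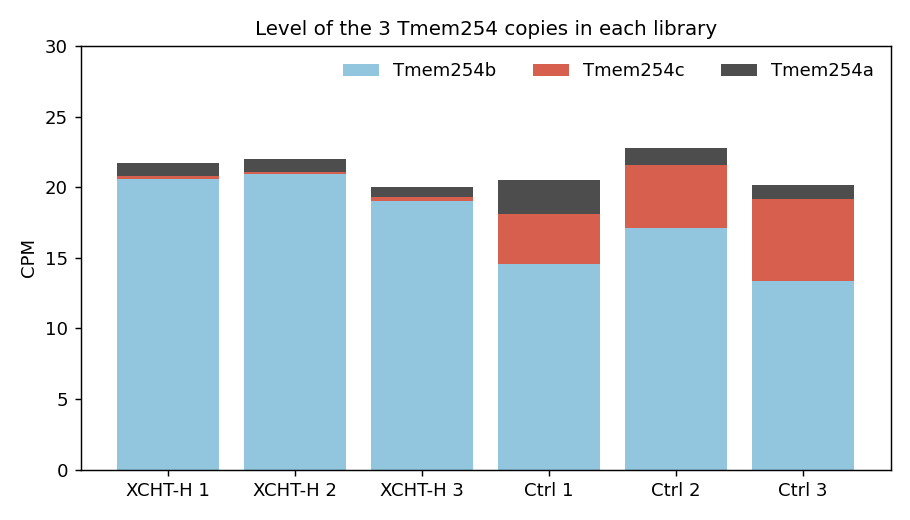
Each bar is a library and its parts are the levels of the 3 Tmem254 copies in CPM, on an axis from 0. The part of Tmem254c is under 0.3 CPM in every XCHT-H library and 3.513 to 5.825 CPM in Ctrl libraries, while the full bars have like heights, 20.04 to 21.99 CPM in XCHT-H and 20.18 to 22.78 CPM in Ctrl.

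The corticosteroid receptors overlapped between the groups, and neither passed. Nr3c1, the glucocorticoid receptor, was at 124.4, 99.89 and 124.0 CPM in XCHT-H, against 110.7, 107.3 and 108.5 CPM in Ctrl, so the groups overlapped (log2 fold change 0.09, 95% interval -0.17 to 0.36). Nr3c2, the mineralocorticoid receptor, was at 4.722, 1.587 and 4.822 CPM in XCHT-H, against 3.63, 3.312 and 3.303 CPM in Ctrl. Adrb1 was at 0.1666 to 0.4648 CPM in XCHT-H and 0.1802 to 0.523 CPM in Ctrl, and Adrb3 had no count in XCHT-H and at most 0.05855 CPM in Ctrl; neither was frequent enough to be tested. Per length, Nr3c1 averaged 19.09 FPKM in XCHT-H and 17.64 FPKM in Ctrl, and Nr3c2 averaged 0.7033 FPKM in XCHT-H and 0.64 FPKM in Ctrl.

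Of the list of glucocorticoid receptor targets, 0 of 17 members tested passed, 10 had positive and 7 negative log2 fold changes, and the median was 0.049 beside 0.002 for all genes. Fkbp5, a co-chaperone of the receptor and a sensitive target of it, averaged 258.6 ± 22.0 CPM in XCHT-H and 273.8 ± 43.9 CPM in Ctrl (SD, n = 3 each). Tsc22d3, which encodes the anti-inflammatory protein GILZ, averaged 219.5 ± 19.3 CPM in XCHT-H and 215.3 ± 25.5 CPM in Ctrl. Sgk1, a kinase that controls ion transport, averaged 61.0 ± 1.302 CPM in XCHT-H and 50.18 ± 3.22 CPM in Ctrl, with a log2 fold change of 0.28. Cebpd, a transcription factor of the acute phase, had the highest member value, at 14.83, 9.054 and 8.424 CPM in XCHT-H against 6.265, 6.799 and 7.147 CPM in Ctrl, with no overlap.
The log2 fold change of Stress over Ctrl, which uses the same 3 Ctrl libraries, was 0.78 for Sgk1 and 1.08 for Cebpd, and the list's median there was 0.165. The 13 cyclic AMP and CREB targets tested had a median of 0.143 and the 23 immediate early genes one of -0.112, with 0 called in either.

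In the circadian clock, the activator BMAL1 (the product of Arntl) pairs with CLOCK on E-boxes, with the core CACGTG, and drives its own repressors, the Per and Cry genes. Arntl was at 34.27, 36.16 and 39.56 CPM in XCHT-H, against 44.79, 44.28 and 48.22 CPM in Ctrl, with a log2 fold change of -0.32 (SE 0.11). Cry1 was at 30.11, 37.04 and 29.63 CPM in XCHT-H, against 22.02, 27.02 and 27.14 CPM in Ctrl, a log2 fold change of 0.34 (SE 0.13). Both were free of overlap, the activator on the low side and the repressor on the high side. For Cry1, Stress libraries, at 21.81 to 26.06 CPM, overlapped Ctrl, while XCHT-L libraries were at 29.78 to 33.42 CPM. Per2, another repressor, was at 23.94, 18.75 and 20.62 CPM in XCHT-H, against 14.05, 17.55 and 15.67 CPM in Ctrl. Nr1d1, which encodes REV-ERB alpha, a repressor of Arntl, was at 10.05, 23.4 and 18.24 CPM in XCHT-H, against 26.64, 32.14 and 24.14 CPM in Ctrl, again with no overlap.
The list as a whole had 0 of 17 members called, 8 positive and 9 negative, with a median of -0.067. Its 4 members with groups not overlapping are the genes just described, where 8.7% of all genes did not overlap. The hour at which tumours were taken is not given in the labels.

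The promoter of Cry1 holds an E-box, and is shown with the motif in capitals (RefSeq, GRCm38.p6, minus strand, the 250 bases before an annotated start, with the motif 60 bases before that start).
Cry1, chr10:85185055-85185304: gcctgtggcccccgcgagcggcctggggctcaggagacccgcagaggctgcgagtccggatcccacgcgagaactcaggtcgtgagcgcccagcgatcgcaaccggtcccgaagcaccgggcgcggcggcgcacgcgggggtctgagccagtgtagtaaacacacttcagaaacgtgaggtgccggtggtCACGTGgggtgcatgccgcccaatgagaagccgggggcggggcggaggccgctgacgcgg
The motif CACGTG, searched on both strands, is in 6.02% of the 32851 upstream windows of this length, and in those of 5 of the 15 clock genes that have one (Bhlhe41, Ciart, Cry1, Per1 and Tef). These matches describe the sequence only.

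Nrf2, a transcription factor, induces genes that detoxify oxidants and that make glutathione and NADPH. Of its targets 0 of 20 tested passed, 18 had positive log2 fold changes and the median was 0.192; 5 had an unadjusted p under 0.05, where 1.04% of all genes did. Hmox1, haem oxygenase 1, which breaks down haem, was at 158.8, 89.72 and 36.31 CPM in XCHT-H, against 29.39, 44.22 and 35.91 CPM in Ctrl (log2 fold change 1.38, SE 0.45, chr8:75093618-75100593). XCHT-H replicates 1 and 2 were above every Ctrl library and replicate 3 was among them, and the log2 fold change of Hmox1 was 0.79 without replicate 1. Gclm, the modifier subunit of the enzyme that limits glutathione synthesis, was at 34.16, 49.33 and 26.55 CPM in XCHT-H, against 24.77, 26.61 and 25.4 CPM in Ctrl, with replicate 3 again inside the Ctrl range and a log2 fold change of 0.52 that was 0.25 without replicate 2.
Srxn1, sulfiredoxin, was at 68.38, 59.73 and 50.95 CPM in XCHT-H, against 49.54, 49.57 and 49.55 CPM in Ctrl. Osgin1, an oxidative stress induced gene, was at 2.833, 3.586 and 2.382 CPM in XCHT-H, against 1.757, 1.801 and 2.342 CPM in Ctrl. Pgd, an enzyme of the pentose phosphate pathway, was at 215.5, 247.4 and 196.4 CPM in XCHT-H, against 174.0, 189.0 and 189.1 CPM in Ctrl. The last 3 genes did not overlap, as 8.7% of all genes did not, and in each of the 5 the lowest XCHT-H library was replicate 3. Nqo1, a quinone reductase often used as a marker of the pathway, averaged 10.09 ± 0.440 CPM in XCHT-H and 9.31 ± 2.32 CPM in Ctrl (SD, n = 3 each). Over the list, the score (mean log2 CPM of the members, each centred over the 12 libraries) was 0.163, 0.244 and -0.127 in XCHT-H, against -0.210, -0.117 and -0.061 in Ctrl. The list's median of 0.192 was 0.144, 0.124 and 0.271 without XCHT-H replicates 1, 2 and 3. With the muscle-richest library of each group left out, that median was 0.08. The named members were chosen after their values were seen.

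The promoter of Gclm holds the core of the antioxidant response element that Nrf2 binds, TGACNNNGC, once, and is shown with it in capitals, here on the opposite strand (RefSeq, GRCm38.p6, plus strand, the 250 bases before an annotated start, with the motif 134 bases before that start).
Gclm, chr3:122245307-122245556: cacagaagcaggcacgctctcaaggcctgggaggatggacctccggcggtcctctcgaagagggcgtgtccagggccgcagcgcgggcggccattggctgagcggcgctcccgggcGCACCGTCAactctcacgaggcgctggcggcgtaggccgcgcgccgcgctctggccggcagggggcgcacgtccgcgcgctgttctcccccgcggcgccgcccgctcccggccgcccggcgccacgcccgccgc
The core, searched on both strands, is in 10.16% of the 32851 upstream windows, and in those of 4 of the 16 Nrf2 targets that have one (G6pdx, Gclm, Prdx1 and Txnrd1). Of these, G6pdx had a log2 fold change of -0.00, Txnrd1 one of 0.11 and Prdx1 one of 0.20. The match is a description and not a site of binding.

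Hmox1 is also in the list of iron handling genes, of which 0 of 13 tested passed and 10 were positive. Slc40a1, ferroportin, the exporter of iron from macrophages, was at 6.166, 0.7055 and 0.6971 CPM in XCHT-H, against 0.2928, 0.3487 and 0.5405 CPM in Ctrl. Nearly all of the difference was in replicate 1, and the log2 fold change of 2.66 was 0.82 without it. The same library held the most haemoglobin transcripts, as given with the cell types, and the part of blood in these values was not tested.

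Of the cell division lists, that of mitosis genes had negative values throughout and that of DNA replication genes did not. Of 22 mitosis genes, 0 passed and all 22 had negative log2 fold changes, between -0.34 and -0.07 with a median of -0.153, and all 22 intervals lay within 1 of 0. The mitosis score overlapped between the groups, at -0.235 to 0.159 in XCHT-H and 0.104 to 0.208 in Ctrl. Cenpe, a kinetochore motor, was at 118.5, 147.7 and 151.9 CPM in XCHT-H, against 173.2, 191.8 and 163.7 CPM in Ctrl. Kif11, the spindle motor Eg5, was at 153.4, 188.3 and 205.9 CPM in XCHT-H, against 225.3, 232.2 and 207.9 CPM in Ctrl, so that these 2 of 22 members did not overlap, beside 8.7% of all genes. Mki67, the proliferation marker Ki-67, was at 507.5, 627.7 and 692.3 CPM in XCHT-H, against 700.6, 813.3 and 664.6 CPM in Ctrl, with overlap. XCHT-H replicate 1 was the lowest library for all 3, and the median of the list was -0.058 without it, -0.262 without XCHT-H replicate 2 and -0.275 with the muscle-richest libraries left out. DNA replication genes had a median of 0.002, with 12 of 22 positive, and p53 targets one of 0.069, with 10 of 17 positive.

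Glycolysis enzymes and hypoxia response genes were likewise on the low side, with 0 called in either. All 16 glycolysis enzymes had negative log2 fold changes, with a median of -0.173 that ran from -0.321 to -0.071 when each library was left out in turn. The glycolysis score was -0.28, 0.229 and -0.182 in XCHT-H, against -0.004, 0.196 and 0.106 in Ctrl. The groups thus overlapped, and XCHT-H replicate 2 was the highest of the 6 libraries. Of 21 hypoxia response genes, 2 were positive, and the median was -0.178. Vegfa, the main growth factor of blood vessels, was at 279.1, 335.2 and 306.0 CPM in XCHT-H, against 378.6, 432.3 and 409.8 CPM in Ctrl, with no overlap (log2 fold change -0.41, 95% interval -1.09 to 0.28). Pdk1, which keeps pyruvate from the mitochondria, was at 74.55, 84.66 and 86.27 CPM in XCHT-H, against 94.68, 104.1 and 95.25 CPM in Ctrl. Bnip3, a mitophagy receptor, was at 105.7, 145.5 and 101.2 CPM in XCHT-H and 127.1, 178.6 and 191.8 CPM in Ctrl, with overlap. The genes named here were chosen after their values were seen.
Stress over Ctrl, with the same Ctrl libraries, had medians of -0.281 for glycolysis and -0.401 for hypoxia.

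Ribosomal and respiratory lists lay near the median of all genes. The 34 cytosolic ribosomal protein genes tested had a median of 0.003 and the 30 nuclear respiratory chain subunits one of 0.042. Heat shock proteins had a median of 0.147 with 17 of 21 positive, led by Hspa8, a constitutive chaperone, at 3266, 5288 and 3333 CPM in XCHT-H, against 3224, 2924 and 3051 CPM in Ctrl. XCHT-H replicate 2 was the high library, and without it the list's median was -0.079. The unfolded protein response had a median of 0.070, with 14 of 21 positive, cholesterol synthesis one of -0.093 and fatty acid synthesis one of 0.007. The cholesterol median ran from -0.373 without XCHT-H replicate 2 to 0.049, and the fatty acid median from -0.147 to 0.093, when each library was left out in turn. Over all 49 lists, 0 had a called member, 26 had a median within 0.1 of 0, and 33 had a positive median.

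**Figure D4:**
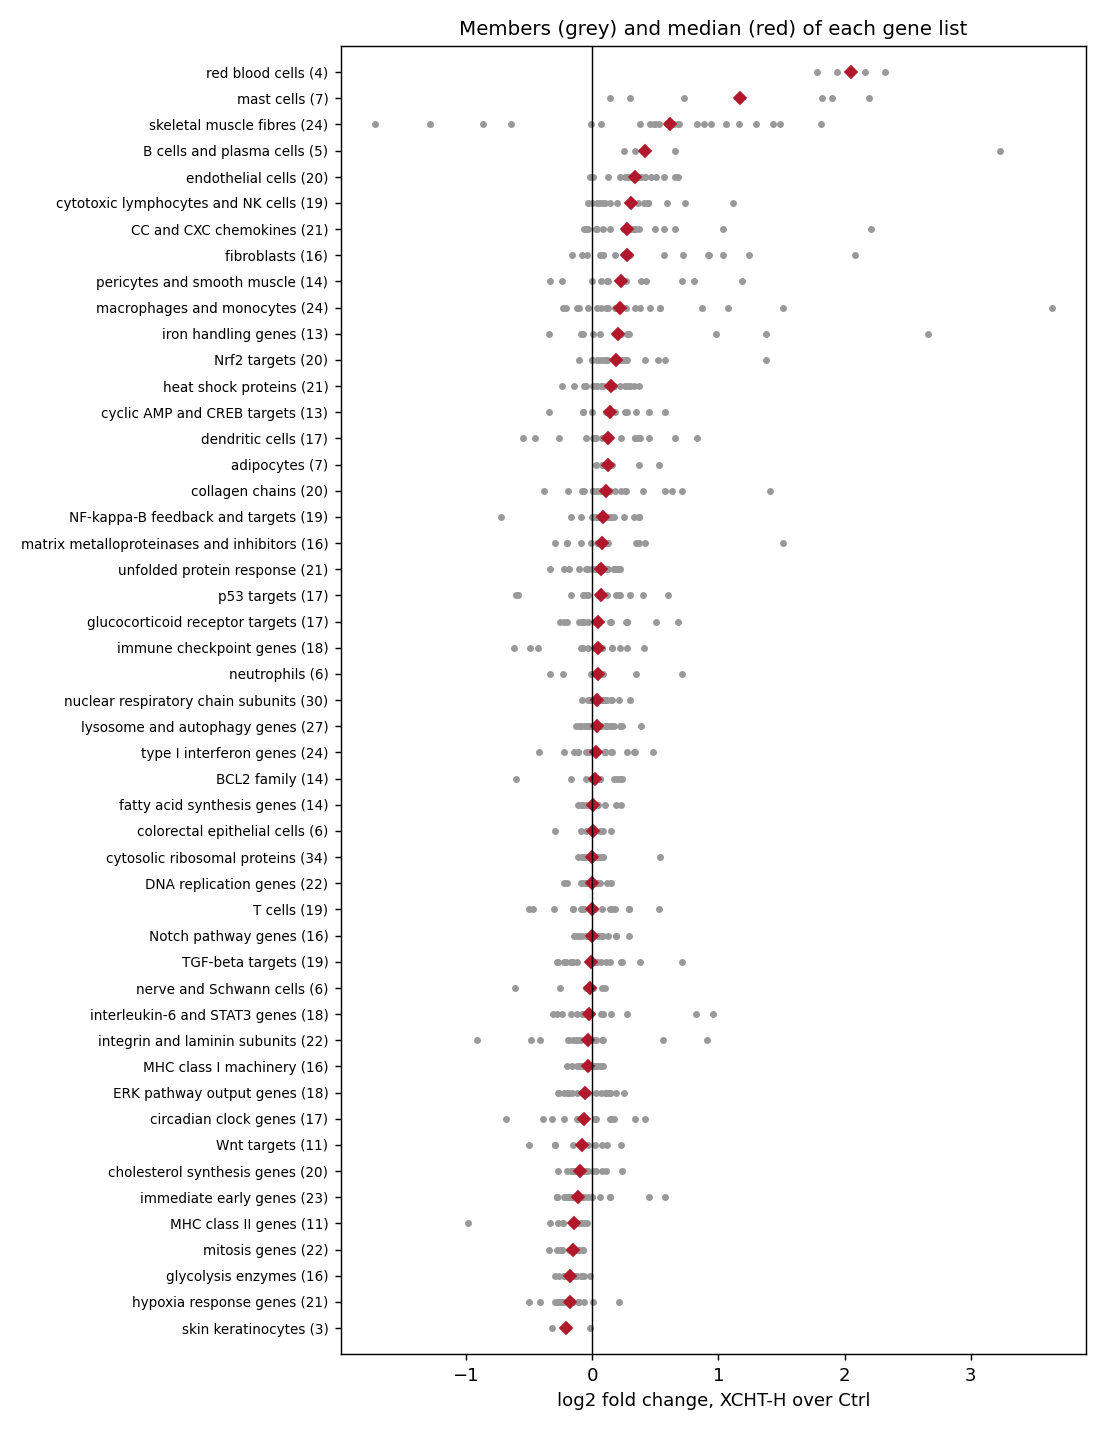
Each row is a gene list with the number of members tested in brackets, grey points are the log2 fold changes of its members (XCHT-H over Ctrl), and the red diamond is their median. Medians run from -0.21 in skin keratinocyte genes, of which 3 were tested, to 2.05 in red blood cell genes, and no member of any list passed the test.

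The medians of immune signalling lists moved when XCHT-H replicate 2 was left out. CC and CXC chemokines, which draw in leukocytes, had 0 of 21 members called and 18 positive, with a median of 0.279 that was 0.085 without that library. The chemokine median was 0.18 without XCHT-H replicate 1 and 0.514 without XCHT-H replicate 3. XCHT-H held both the highest and the lowest chemokine score, 0.518 in replicate 2 and -0.41 in replicate 3, against -0.284 to -0.157 in Ctrl. Ccl12, a monocyte attractant, was at 11.83, 11.93 and 6.739 CPM in XCHT-H, against 9.368, 4.881 and 6.366 CPM in Ctrl. Ccl7, another one, was at 41.94, 54.32 and 27.94 CPM in XCHT-H, against 33.49, 23.88 and 30.27 CPM in Ctrl, and Cxcl3, a neutrophil attractant, reached 2.41 CPM in XCHT-H replicate 2 and at most 0.5809 CPM elsewhere in the 6 libraries. All 3 overlapped between the groups.
Type I interferon genes had a median of 0.031 with all libraries and -0.433 without XCHT-H replicate 2, whose score was 0.846, against -0.318 to 0.306 in the other 5. MHC class II genes, which present antigen to helper T cells, had 0 of 11 members called and 0 positive, with a median of -0.145. It was -0.316 without XCHT-H replicate 2, and stayed negative, at -0.130 or below, whichever of the 6 libraries was left out. Of the 11 members, 3 were lower without overlap, beside 4.93% of all genes. The score was -0.001 to 0.220 in XCHT-H and 0.268 to 0.380 in Ctrl. The summed level did overlap, at 1735 to 2229 CPM in XCHT-H and 2202 to 2283 CPM in Ctrl.

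Among markers of cell types that a subcutaneous tumour can hold, haemoglobin, mast cell and skeletal muscle genes differed mostly through single libraries. The endothelial, fibroblast, cytotoxic lymphocyte, and B and plasma cell lists kept a positive median whichever of the 6 libraries was left out. So did the mast cell list, whose lowest such median was 0.149, beside 0.134 for endothelial genes. Pericyte, adipocyte and dendritic cell lists also stayed positive, with lowest medians of 0.002, 0.014 and 0.037. Haemoglobin genes had the highest list median: 4 of 4 tested were positive, 0 passed, and the median log2 fold change was 2.05. Hbb-bs, a beta globin, was at 118.0, 21.64 and 3.776 CPM in XCHT-H, against 8.197, 11.45 and 9.128 CPM in Ctrl, so that XCHT-H held both the highest and the lowest library. The 2 alpha globin genes are nearly identical and their split is uncertain: Hba-a1 was at 54.71, 10.35 and 2.324 CPM in XCHT-H and 5.23 to 6.246 CPM in Ctrl, and Hba-a2 at 88.43, 12.76 and 1.22 CPM in XCHT-H and 5.445 to 9.007 CPM in Ctrl. Without XCHT-H replicate 1 the median of the list was -0.009. The summed level of the 7 red blood cell markers in the tables was 286.3, 48.03 and 8.249 CPM in XCHT-H, against 22.07 to 28.94 CPM in Ctrl.

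Mast cell genes followed the same library. All 7 tested were positive with a median of 1.175, which was 0.149 without XCHT-H replicate 1, and 0 passed. Cma1, a chymase, was at 3.388, 0.3528 and 0.639 CPM in XCHT-H, against 0.2928, 0.1743 and 0.4804 CPM in Ctrl. Tpsb2, a tryptase, was at 3.999, 0.1764 and 0.8714 CPM in XCHT-H and 0.2928 to 0.7207 CPM in Ctrl, and Cpa3, carboxypeptidase A3, at 2.944, 0.1176 and 0.2905 CPM in XCHT-H and 0.1171 to 0.6005 CPM in Ctrl. Replicate 1 was high for each of the 3, and the other two XCHT-H libraries were at most 0.8714 CPM.

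Skeletal muscle transcripts varied in both groups. Their summed level was 134.5, 797.6 and 128.9 CPM in XCHT-H, against 467.5, 129.1 and 148.2 CPM in Ctrl, so that 1 library in each group was high. The list's median log2 fold change of 0.62, over 24 genes tested, was -2.817 without XCHT-H replicate 2 and 3.054 without Ctrl replicate 1, and it was -0.408 with both left out. Acta1, skeletal alpha-actin, was at 0.7221, 125.0 and 3.253 CPM in XCHT-H, against 64.17, 0.2906 and 4.985 CPM in Ctrl. The slow-fibre troponins, the 3 genes named by the smallest p, had negative log2 fold changes, -0.64 for Tnnc1, -0.86 for Tnni1 and -1.28 for Tnnt1. Of these 24 genes, 19 had positive and 5 negative log2 fold changes. Other lists also moved when the muscle-richest library of each group was left out: the median was then -0.456 for type I interferon genes, -0.511 for cholesterol synthesis and -0.385 for glycolysis. The part of muscle in these values was not tested.

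Of 20 endothelial genes, 19 were positive, 0 passed, 2 did not overlap (beside 8.7% of all genes), and the median was 0.337, from 0.134 to 0.527 when each library was left out in turn. Cldn5, a tight junction protein of vessels, was at 2.055, 2.763 and 1.685 CPM in XCHT-H, against 1.581, 1.453 and 1.021 CPM in Ctrl, with no overlap. Eng, endoglin, averaged 19.9 ± 5.70 CPM in XCHT-H and 15.86 ± 2.37 CPM in Ctrl (SD, n = 3 each), and Plvap, of the diaphragm of fenestrated vessels, was at 28.05, 33.1 and 19.0 CPM in XCHT-H and 22.54, 24.06 and 13.39 CPM in Ctrl. The endothelial score was 0.324, 0.596 and 0.022 in XCHT-H, against 0.299, 0.065 and -0.526 in Ctrl, so the groups overlapped and Ctrl replicate 3 was the lowest.

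Of 16 fibroblast genes, 13 were positive and 0 passed, with a median of 0.278, from 0.222 to 0.350 when each library was left out in turn. Pdpn, podoplanin, was at 127.0, 117.1 and 115.3 CPM in XCHT-H, against 101.2, 93.33 and 107.1 CPM in Ctrl, with no overlap. Fbln2, fibulin 2, went the other way without overlap, at 831.3 to 929.6 CPM in XCHT-H and 931.1 to 963.4 CPM in Ctrl. Pdpn and Fbln2 were the only members without overlap, beside 8.7% of all genes. Clec3b, tetranectin, was at 11.78, 1.646 and 6.1 CPM in XCHT-H and 1.639, 1.104 and 1.862 CPM in Ctrl, and Dpt, dermatopontin, at 23.33, 12.58 and 20.68 CPM in XCHT-H and 13.0, 6.16 and 10.45 CPM in Ctrl. In both, replicate 2 was the XCHT-H library inside the Ctrl range.

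Macrophage and monocyte genes had a median of 0.222 with 19 of 24 positive and 0 called, and a median of -0.032 without XCHT-H replicate 1. Lyz2, lysozyme, was at 1116, 577.2 and 641.1 CPM in XCHT-H, against 572.4, 510.4 and 521.3 CPM in Ctrl. Cd68, a lysosomal protein of macrophages, was at 80.32, 47.68 and 46.24 CPM in XCHT-H, against 45.67, 44.28 and 43.72 CPM in Ctrl. Both were free of overlap, and in both the XCHT-H replicates 2 and 3 lay close to Ctrl. Marco, a scavenger receptor, was at 1.333, 0.8231 and 0.2905 CPM in XCHT-H and at most 0.1162 CPM in Ctrl, and was below the level set for naming (0.5 FPKM in XCHT-H). Lyz2, Cd68 and Marco, the 3 of 24 members without overlap (beside 8.7% of all genes), were chosen after their values were seen.

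Genes of cytotoxic lymphocytes and NK cells had 18 of 19 positive, 0 called and a median of 0.309, from 0.221 to 0.382 when each library was left out. Hcst, the adaptor DAP10, was at 0.4999, 0.3528 and 0.5809 CPM in XCHT-H, against 0.2342, 0.2324 and 0.1802 CPM in Ctrl, with no overlap. Xcl1, a chemokine for dendritic cells, averaged 1.939 ± 0.737 CPM in XCHT-H and 1.431 ± 0.499 CPM in Ctrl, and Klrd1, the receptor chain CD94, averaged 4.2 ± 0.603 CPM in XCHT-H and 3.275 ± 0.490 CPM in Ctrl (SD, n = 3 each). The summed level of the list was 98.32, 81.6 and 115.2 CPM in XCHT-H, against 71.61, 100.2 and 75.61 CPM in Ctrl, with overlap. T cell genes had a median of 0.001 with 10 of 19 positive. Of the B and plasma cell list, 5 were tested and all were positive, but Ms4a1, which encodes the B cell surface protein CD20, was at 0 in all 3 XCHT-H libraries and at 0.05811 to 0.06005 CPM in Ctrl. Jchain, the joining chain of antibodies, was at 11.28, 5.233 and 0.1743 CPM in XCHT-H, against 1.522, 0.05811 and 0.1802 CPM in Ctrl. Sdc1, syndecan-1, which other cell types also make, was at 105.3, 109.8 and 91.96 CPM in XCHT-H and 83.6 to 88.01 CPM in Ctrl.

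**Figure D5:**
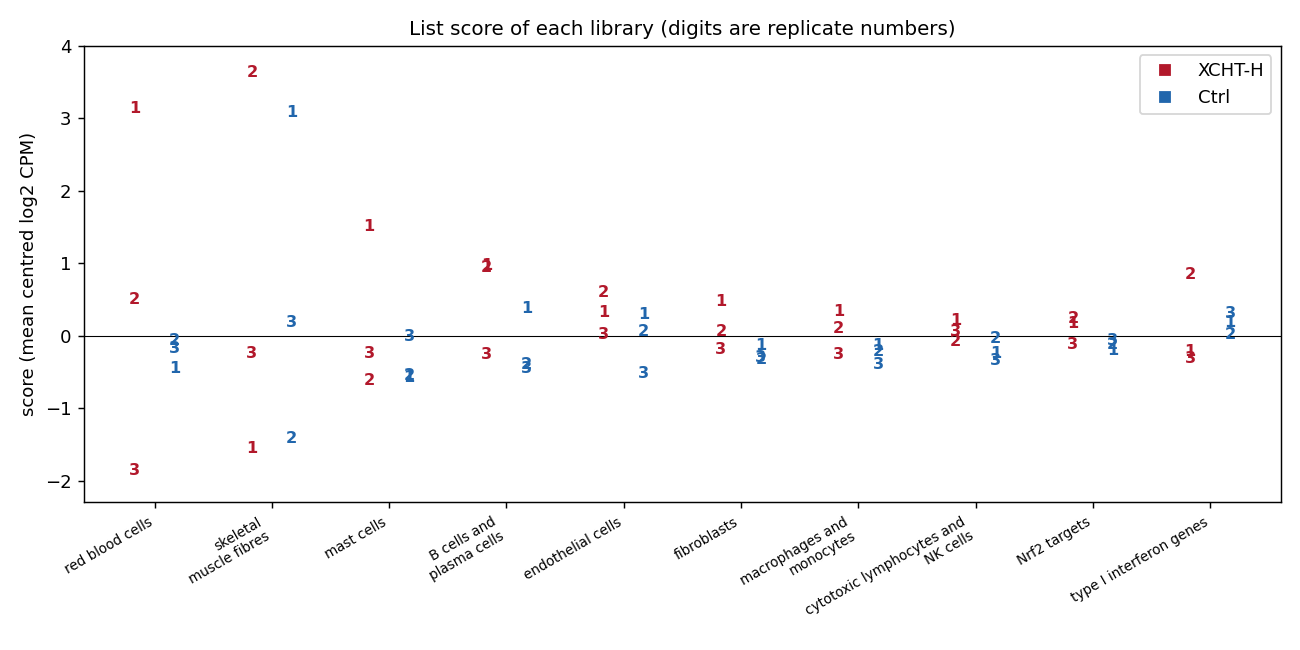
The vertical axis is the score of a list in a library, the mean over its members of log2 CPM centred over the 12 libraries, and digits are replicate numbers, red for XCHT-H and blue for Ctrl. XCHT-H replicate 1 is alone at the top for red blood cells (3.141) and mast cells (1.514), and XCHT-H replicate 2 and Ctrl replicate 1 are far above the rest for skeletal muscle (3.636 and 3.077).

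Epithelial identity was checked against the label of a colorectal tumour. Of 24 markers of colorectal epithelium, 20 were in the tables and 6 were frequent enough to be tested. Epcam, the epithelial adhesion molecule, was at 0.2222, 0 and 0.8133 CPM in XCHT-H, against 0.1757, 0.5811 and 0.1802 CPM in Ctrl. The keratins Krt8 and Krt18 were at 0 or at most 0.05879 CPM in the 6 libraries, and Cdx1, an intestinal transcription factor, had no count in any. Cdh1, E-cadherin, averaged 8.688 ± 2.67 CPM in XCHT-H and 8.981 ± 1.60 CPM in Ctrl (SD, n = 3 each). The summed level of the list was 143.6 to 176.7 CPM in XCHT-H and 171.3 to 219.3 CPM in Ctrl, most of it from Sox9, a transcription factor also made outside the gut, at 121.5 to 150.3 CPM in XCHT-H and 147.3 to 193.5 CPM in Ctrl. Lgals4, an intestinal galectin, was at 7.173 to 11.78 CPM in XCHT-H and 7.846 to 10.69 CPM in Ctrl. Epcam, Krt8, Krt18 and Cdx1 were thus at or near 0 in both groups, while Cdh1, Lgals4 and Sox9 were not.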

How the data were processed

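Poly(A)-selected, strand-marked libraries were read from both ends, per the labels' protocols. The authors' tools were cutadapt 1.9, HISAT2 2.0.4, StringTie 1.3.4d, DESeq2 and edgeR, with the build GRCm38.p6, per the submitters' processing notes; counting options and annotation are not given in the sources used here. The deposited estimated counts, which the authors gave for each gene and did not scale, were not whole in 11.7% to 12.5% of cells of a library and were rounded, where whole counts had been assumed. The deposited FPKM values, scaled by the authors for length and depth, served to choose named genes and compare genes. TPM values, which the authors deposited with a fixed sum per library, entered no result given here.

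Symbols turned into dates were restored for 26 of 17875 genes, and 17820 were matched by Entrez ID to RefSeq. Of these genes, 13453 passed filterByExpr (minimum count 10). TMM factors, edgeR 4.0.16 (robust quasi-likelihood, R 4.3.3) and 2-sided tests were used in 1 model of 12 libraries in 4 groups, with 8 residual degrees of freedom and a common dispersion of 0.038. The p-values were adjusted by Benjamini-Hochberg over the 13453 genes, and 0.05 was the threshold. CPM use TMM-scaled library sizes, and scores a prior count of 2. The median SE of 0.164 sets the precision. The same steps were tested on simulated counts.

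Named genes were up to 8 per direction by unadjusted p as described in the report, since none passed; up to 3 members of each of the 8 lists whose median lay at least 0.25 from that of all genes; and hormone receptors, some of which are not reported here. Others were chosen after their values were seen (Hmox1, Gclm, Srxn1, Osgin1, Pgd, Nqo1, Slc40a1, Marco, Lyz2, Cd68, Acta1, Cebpd, Fkbp5, Tsc22d3, Sgk1, Per2, Nr1d1, Vegfa, Pdk1, Bnip3, Cenpe, Kif11, Mki67, Hspa8, Fbln2, the other Tmem254 copies and the epithelial markers). The 49 gene lists had 949 entries, of which 925 matched by symbol, 2 by another symbol and 22 did not match; 828 were tested. The comparison, its lists and the members were chosen with earlier results of these data known. Alternatives were DESeq2 1.42.0, limma-voom (limma 3.58.1), a fit of only the 6 libraries compared, a replicate block, RLE factors, a higher minimum count (50) or none, a muscle covariate, the muscle-richest libraries left out, a length trend removed, an unadjusted threshold, and each library left out.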

Additional observations from a re-analysis of the deposited data

How the results depend on the processing

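The count of genes called in XCHT-H against Ctrl was 0 under limma-voom, RLE factors, a minimum count of 50 or none, the muscle covariate, the muscle-richest libraries left out, the length trend removed and each of the 6 libraries left out in turn (0 to 0, with 68 to 329 genes at an unadjusted p under 0.05). It was 1, lower in XCHT-H, under DESeq2 and with only the 6 libraries compared; the gene was Tmem254c, at log2 fold changes of -4.318 and -4.278, and with its copies summed, an alternative chosen after seeing the data, its log2 fold change was 0.007. An unadjusted p under 0.05 with a log2 fold change of at least 1 in size gave 45 genes, 36 higher and 9 lower.

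Samples with the same replicate number did not deviate together (correlations of -0.297, -0.451 and -0.005), and none of the 3 XCHT-H libraries correlated best with the Ctrl library of its number. Deviations from a mean of 3 libraries are tied to each other, so these values cannot decide whether the numbers pair them. With the replicate block 0 genes were called.

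Of the named genes, these turned direction without 1 library, with the range of the log2 fold change over the 6 omissions: Tnnt1 without Ctrl replicate 1 (-2.868 to 0.634), Hba-a2 and Cpa3 without XCHT-H replicate 1 (-0.130 to 2.726 and -0.518 to 2.886), and Nr3c2 without XCHT-H replicate 1 at -0.091 or 3 at -0.113 (-0.113 to 0.482). Cdh1 was 0.187 without XCHT-H replicate 1 and 0.106 without Ctrl replicate 2 (-0.200 to 0.187), and Tsc22d3 was -0.007, -0.013 and -0.043 without XCHT-H replicates 1 and 3 and Ctrl replicate 1 (-0.043 to 0.125). Fkbp5 ranged from -0.209 to 0.005 and Nqo1 from -0.010 to 0.336, the ends at 0.005 and -0.010 without Ctrl replicate 1; with the muscle-richest libraries left out they were 0.070 and -0.040. Acta1 ranged from -3.545 without XCHT-H replicate 2 to 4.028 without Ctrl replicate 1, and was -0.716 under limma-voom and -0.408 with the muscle-richest libraries left out. The cause was not tested. Of 784 medians of lists under an alternative, 28 moved by more than the spread between replicates. That spread includes the libraries that stood apart, which widen it. The count therefore cannot show that the medians were stable, and some changed sign as given with their lists. Single alternatives keep 2 libraries for a group and pool the spread over all groups. Low counts limit mast cell, B cell and epithelial genes.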
